A study of Mus musculus with 5 samples.

Results

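The expression of 32 genes of glycolysis, lactate handling and glycogen metabolism was followed in RNA of amygdala astrocytes from mice stressed with or without depletion of CCR2-expressing monocytes. The genes were taken by symbol from the deposited count table, which held all 32 among 35976 genes, and all 32 passed the low-count filter of the comparison. Every mouse had the genotype Ccr2::CreERT2/+;DTR/+, in which a tamoxifen-activated Cre recombinase made in Ccr2-expressing cells switches on a diphtheria toxin receptor. Both groups were given tamoxifen and underwent tube restraint for 18 days, followed by fear conditioning and extinction, so all groups were stressed and no unstressed group was analysed here. One group received saline and the other diphtheria toxin (DTx) over the restraint period. The libraries came from cells bound by ACSA-2 beads after papain digestion of the amygdala, with 5 ng of total RNA each. The 2 saline libraries are called replicates 1 and 2, and the 3 DTx libraries are called 5A, 6A and 7A. Neither the labels nor the design text states the age of the mice, and monocytes in blood or tissue were not measured here.

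Glycolysis splits glucose into pyruvate in the cytosol, and pyruvate is either reduced to lactate or oxidised in mitochondria. Astrocytes are known for a high glycolytic rate, for storing most of the glycogen of the brain, and for exporting lactate that neurons can take up. Many steps can be run by more than 1 enzyme isoform from separate genes, and the isoforms differ in affinity, in regulation and in the cell types that use them.

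Total counts were 20577672 and 23720299 in the saline libraries and 15961220 to 18708138 in the DTx libraries. All 12 astrocyte markers checked were at 261.3 CPM (counts per 1000000 scaled counts of the library) or more in every library, and together they made up 1.83% to 2.30% of scaled counts. Myelin RNA was abundant in the same libraries: 10 oligodendrocyte markers made up 4.30% to 9.28% of scaled counts. The 12 neuron markers summed to 321.7 to 493 CPM and the 12 microglia markers to 107.2 to 455.2 CPM. The 8 monocyte and macrophage markers summed to 23.0 and 30.8 CPM in saline against 202.2, 24.9 and 77.0 CPM in 5A, 6A and 7A, and 0 of the 5 tested passed the adjusted threshold. Ccr2 itself had 0 counts in both saline libraries and 54, 4 and 4 counts in 5A, 6A and 7A, so it was not lower in the libraries labelled DTx. Fewer cells of a type and less RNA per cell cannot be told apart in such bulk libraries. The groups also differed in sex-chromosome RNA: Xist had 3739 and 2876 counts in saline and 3, 0 and 0 counts in DTx, and Ddx3y had 4 and 1 counts in saline and 1865 to 2365 counts in DTx. Treatment and the state of the sex chromosomes therefore cannot be told apart in any comparison here. Pgk1 and Pdha1, 2 of the 32 genes, lie on the X chromosome.

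The 32 genes took 1.36% to 1.45% of all counts in each library, and Aldoc alone took 47.0% to 54.6% of that share. Levels between genes are given per length, as CPM per kilobase of exon, with exon lengths from the GENCODE annotation of GRCm38. On this scale Aldoc was 10th of the 14374 genes that passed the low-count filter and had a length, at 2343 ± 115.3 (SD, n = 5 libraries). Of the 32 genes, 5 were in the top 1% and 17 in the top 10%, whereas 8 lay below the top 40%. The lowest were Hk2 at 0.403 ± 0.136, Slc16a7 at 0.637 ± 0.228 and Slc2a3 at 1.70 ± 0.367, and the differences among genes were far larger than those among libraries. Within a gene, the ratio of the highest to the lowest library had a median of 1.37 over the 32 genes, from 1.13 for Aldoc to 2.44 for Slc16a7.

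**Figure D1:**
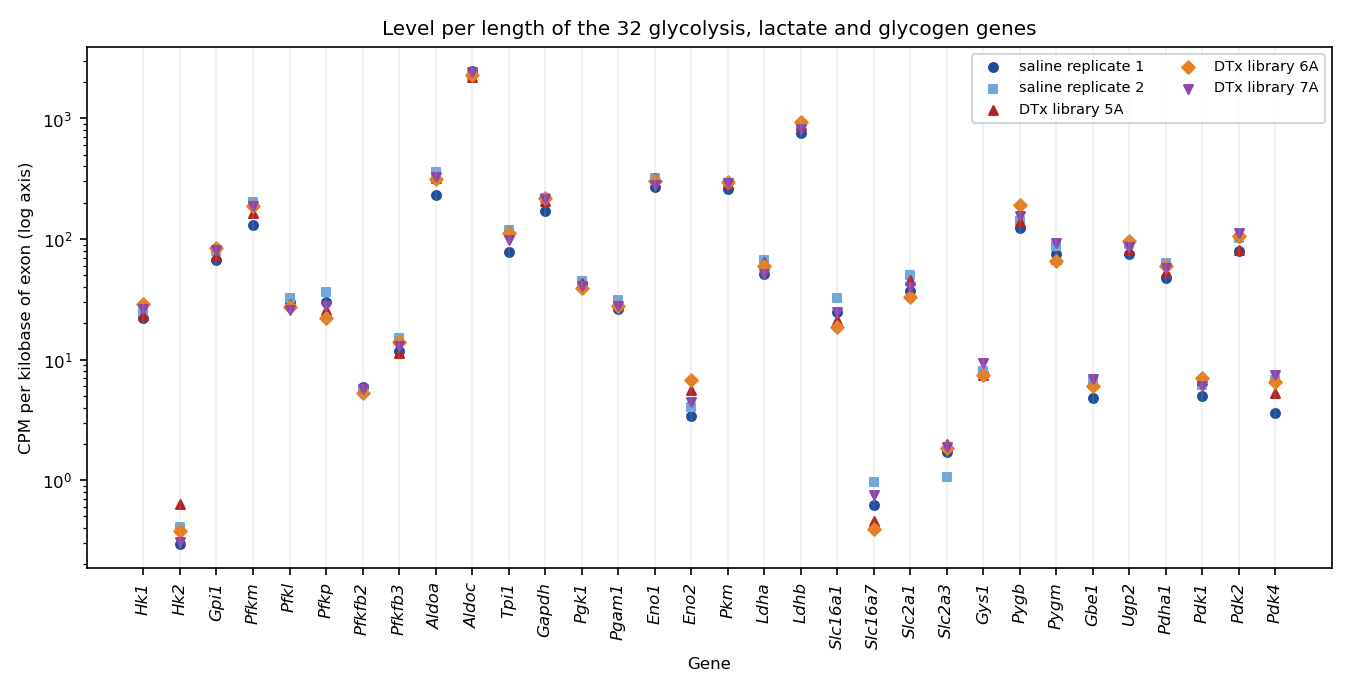
Level of each of the 32 genes in CPM per kilobase of exon on a log axis, with 1 point for each of the 2 saline and 3 DTx libraries. Points of a gene lie close together, while genes span from 0.403 for Hk2 to 2343 for Aldoc on average.

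The aldolase and lactate dehydrogenase pairs carried much of this signal, and the start regions of their genes are shown because each pair has 1 dominant and 1 minor member in these libraries. The sequences are RefSeq windows of GRCm38.p6, from 250 bases before to 50 after a transcript start, on the strand of the gene. Where the table of windows held several for a gene, the most upstream of them was taken. For Aldoa and Ldha the annotated gene begins further upstream, at 126800994 and 46842274 on chromosome 7, so their windows do not lie at the outermost start. Capitals mark each ACGTG or GCGTG, the core that hypoxia-inducible factor binds, on either strand, with overlapping matches counted separately. The windows are chr11:78322823-78323122 (plus strand) for Aldoc, chr7:126800398-126800697 (minus) for Aldoa, chr6:142507908-142508207 (minus) for Ldhb and chr7:46845554-46845853 (plus) for Ldha.
Aldoc: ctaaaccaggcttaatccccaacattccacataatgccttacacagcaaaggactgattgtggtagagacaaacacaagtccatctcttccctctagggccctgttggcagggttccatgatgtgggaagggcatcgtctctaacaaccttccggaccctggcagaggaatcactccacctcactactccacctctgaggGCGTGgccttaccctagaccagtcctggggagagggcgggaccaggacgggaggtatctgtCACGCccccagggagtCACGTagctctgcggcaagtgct
Aldoa: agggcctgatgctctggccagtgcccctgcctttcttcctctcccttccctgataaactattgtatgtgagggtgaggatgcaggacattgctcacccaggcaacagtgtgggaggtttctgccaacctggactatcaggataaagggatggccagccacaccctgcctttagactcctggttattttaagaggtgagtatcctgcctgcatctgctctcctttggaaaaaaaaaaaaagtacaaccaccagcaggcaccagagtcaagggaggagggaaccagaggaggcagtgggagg
Ldhb: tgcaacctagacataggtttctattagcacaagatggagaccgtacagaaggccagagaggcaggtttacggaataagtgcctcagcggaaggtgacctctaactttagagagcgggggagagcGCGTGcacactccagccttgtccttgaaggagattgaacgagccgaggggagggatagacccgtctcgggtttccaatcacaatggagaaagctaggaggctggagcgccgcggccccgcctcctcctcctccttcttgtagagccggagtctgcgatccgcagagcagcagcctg
Ldha: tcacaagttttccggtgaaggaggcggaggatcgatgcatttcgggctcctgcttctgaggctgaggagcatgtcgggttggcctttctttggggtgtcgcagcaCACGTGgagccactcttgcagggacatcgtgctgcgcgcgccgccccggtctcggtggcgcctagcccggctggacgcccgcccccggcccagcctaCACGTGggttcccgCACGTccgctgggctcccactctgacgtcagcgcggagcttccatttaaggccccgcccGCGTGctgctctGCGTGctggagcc

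The core matched 3 times in the Aldoc window, 0 times in the Aldoa window, once in the Ldhb window and 7 times in the Ldha window. The count depended on the start chosen: the other 2 windows of Aldoa held 1 match each, the other window of Aldoc held 1 and that of Ldha held 2. Of the 30 genes with a window in the table, 22 (73.3%) held at least 1 match, against 43.8% of 27025 genes of the genome. The 27025 were not limited to genes expressed in these libraries, so these shares come from unlike sets. A match describes these letters only.

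Glucose enters through facilitative transporters and is trapped by hexokinase. Slc2a1 (GLUT1, the transporter of astrocytes and brain endothelium) stood at 121.8 and 163.8 CPM in saline and at 149.1, 108.0 and 129.9 CPM in DTx (5A, 6A and 7A in this order). Slc2a3 (GLUT3, the neuronal transporter) stood at 6.79 and 4.21 CPM in saline and at 7.82, 7.34 and 7.46 CPM in the DTx libraries. Slc2a3 lies at chr6:122727809-122802363 (minus strand, GRCm38.p6, as for all positions here). Slc2a1 overlapped between groups, whereas every DTx library was above both saline libraries for Slc2a3. Per length, Slc2a1 was 24.5 times Slc2a3 on average, with a range of 17.8 to 47.0 over libraries. The DTx over saline ratio was 0.904 for Slc2a1 (95% interval 0.645 to 1.27, edgeR adjusted p = 0.899). For Slc2a3 it was 1.37 (0.871 to 2.16, edgeR adjusted p = 0.803). Its log2 fold change was 0.46 with all libraries, 0.84 without saline replicate 1 and 0.15 without saline replicate 2.

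Hk1, the widely expressed mitochondrial-bound hexokinase, stood at 108.0 and 121.7 CPM in saline and at 113.0, 139.3 and 128.2 CPM in DTx. Hk2, the inducible hexokinase of muscle and fat, stood at 1.66 and 2.29 CPM in saline and at 3.54, 2.11 and 1.71 CPM in DTx, from 30 to 67 counts. Both genes overlapped between groups, and library 5A was the high one for Hk2. Hk1 made up 97.4% to 98.9% of the RNA of Hk1 and Hk2 together, per length. The ratio of DTx to saline was 1.10 for Hk1 (95% interval 0.854 to 1.43) and 1.24 for Hk2 (0.607 to 2.55), so the interval for Hk2 still held changes beyond 2-fold. Gpi1, which turns glucose 6-phosphate into fructose 6-phosphate, stood at 193.9 to 241.3 CPM over the 5 libraries, with overlapping groups.

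Phosphofructokinase is the committed step of glycolysis and is built from 3 kinds of subunit. The muscle-type subunit Pfkm stood at 394.5 and 613.9 CPM in saline and at 491.1, 568.8 and 566.5 CPM in DTx. The liver-type subunit Pfkl stood at 112.3 and 121.2 CPM in saline and at 108.5, 100.9 and 95.53 CPM in DTx. The platelet-type subunit Pfkp (chr13:6579874-6649060, minus strand) stood at 129.6 and 156.8 CPM in saline and at 111.2, 95.78 and 119.97 CPM in DTx. Pfkm supplied 68.6% to 79.4% of phosphofructokinase RNA per length, and Pfkl and Pfkp were near each other, with a Pfkp to Pfkl ratio of 0.823 to 1.12 that crossed 1 between libraries. Both minor subunits were below saline in all 3 DTx libraries, whereas Pfkm overlapped.

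The DTx over saline ratio was 0.761 for Pfkp (95% interval 0.579 to 1.001, unadjusted p = 0.0505, edgeR adjusted p = 0.789). Exons of Pfkp (12054 counts in all) overlap Pitrm1 (3446 counts) on the other strand, and these genes could share reads. The ratio was 0.870 for Pfkl (0.695 to 1.09) and 1.08 for Pfkm (0.738 to 1.57). Pfkfb3 and Pfkfb2 make and break fructose 2,6-bisphosphate, the activator of phosphofructokinase, and Pfkfb3 is the form with the strongest kinase activity. Pfkfb3 stood at 65.33 and 83.61 CPM in saline and at 62.79, 77.8 and 72.06 CPM in DTx, and Pfkfb2 at 29.96 and 28.24 against 27.91, 26.31 and 28.65 CPM. Pfkfb3 was 2.32 times Pfkfb2 per length (1.98 to 2.69), and both overlapped between groups. Their DTx over saline ratios were 0.952 (95% interval 0.719 to 1.26) and 0.949 (0.762 to 1.18).

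Aldolase cleaves fructose 1,6-bisphosphate. Aldoc, the brain form and an astrocyte marker, stood at 7415 and 6841 CPM in saline and at 6540, 6854 and 7210 CPM in DTx. Aldoa, the muscle and general form, stood at 589.1 and 915.1 CPM in saline and at 827.1, 813.3 and 831.6 CPM in DTx. The groups overlapped for both, and saline replicate 1 was the highest library for Aldoc and the lowest for Aldoa. Aldoc was therefore 10.8 times Aldoa per length in that library and 6.44 to 7.47 times in the other 4. The DTx over saline ratio was 0.964 for Aldoc (95% interval 0.704 to 1.32, edgeR adjusted p = 0.960) and 1.10 for Aldoa (0.758 to 1.58).

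Of the enzymes below aldolase other than enolase, only Pgk1 had groups that did not overlap. Tpi1, which interconverts the 2 triose phosphates, ranged from 136.7 to 209.8 CPM, and Gapdh, which makes the first NADH, from 254.6 to 328.3 CPM. Both were lowest in saline replicate 1 and overlapped between groups. Pgk1, the first ATP-making enzyme, stood at 79.37 and 82.17 CPM in saline and at 78.97, 71.58 and 73.77 CPM in DTx, just below saline in every DTx library, with a ratio of 0.926 (95% interval 0.750 to 1.14). Pgam1, the mutase after it, ranged from 46.86 to 55.86 CPM. Pkm, pyruvate kinase, ranged from 671.1 to 767 CPM with a ratio of 1.06 (0.813 to 1.38), and gene-level counts do not separate its M1 and M2 splice forms.

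Enolase showed the 1 gene of the 32 with an unadjusted p under 0.05. Eno1, the general enolase, stood at 692.5 and 821.8 CPM in saline and at 811.9, 771.8 and 711.99 CPM in DTx. Eno2, the neuronal enolase at chr6:124760053-124769673 (minus strand), stood at 9.51 and 11.2 CPM in saline and at 15.6, 19.0 and 12.4 CPM in DTx (5A, 6A and 7A in this order). Eno1 overlapped between groups, and all 3 DTx libraries were above both saline libraries for Eno2, with 6A the highest and 7A near saline replicate 2. The ratio was 1.01 for Eno1 (95% interval 0.759 to 1.35) and 1.51 for Eno2 (1.03 to 2.22, unadjusted p = 0.0375, edgeR adjusted p = 0.789), so Eno2 did not pass over all genes. Without 5A, 6A or either saline library its unadjusted p was no longer under 0.05. Eno1 was 44.5 to 80.3 times Eno2 per length.

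Summed neuron markers were also higher in the DTx libraries, although 0 of 12 passed the adjusted threshold. At an edgeR unadjusted p under 0.05, 4 of 12 were higher (Syt1, Stmn2, Gad1 and Gad2) and 0 lower, against 6.28% of all genes tested. The 12 neuron markers had a median log2 fold change of 0.72. They summed to 362 and 321.7 CPM in saline against 390.3, 492.8 and 473.7 CPM in 5A, 6A and 7A, 10 of 12 markers had a higher mean in DTx, and no marker was at 0 in all libraries. Library 7A was near 6A in the neuron sum and near saline replicate 2 in Eno2, and single neuron markers differed. Snap25, Nefl and Tubb3 were highest in 7A, at 147.2, 125.5 and 75.1 CPM. Rbfox3, Syt1 and Stmn2 stood at 11.5, 17.4 and 24.6 CPM in 7A against 20.7, 38.5 and 38.8 CPM in 6A. The part of neuronal RNA in the Eno2 and Slc2a3 values was not tested. Eno1b, a near-identical copy of Eno1, stood at 8.52 to 10.7 CPM, and reads of Eno1 could be split with it.

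Lactate dehydrogenase interconverts pyruvate and lactate, and the B subunit is the form of oxidative tissue while the A subunit favours lactate. Ldhb stood at 996.9 and 1134 CPM in saline and at 1155, 1224 and 1076 CPM in DTx. Ldha stood at 96.82 and 127.6 CPM in saline and at 122.4, 113.5 and 97.92 CPM in DTx. Neither gene separated the groups, and Ldhb was 14.6 times Ldha per length, within 12.9 to 16 in all 5 libraries. Its log2 ratio of counts had the smallest SD of the 14 isoform pairs compared (0.13 over the 5 libraries), at 3.36 and 3.15 in saline and 3.24, 3.43 and 3.46 in DTx. The DTx over saline ratio was 1.08 for Ldhb (95% interval 0.813 to 1.44) and 0.991 for Ldha (0.736 to 1.34, edgeR adjusted p = 0.989).

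Lactate crosses membranes on monocarboxylate transporters. Slc16a1 lies at chr3:104638664-104658462 (plus strand) and Slc16a7 at chr10:125219270-125389586 (minus strand). Slc16a1 (MCT1, the form of glia and endothelium) stood at 109.2 and 142.2 CPM in saline and at 93.4, 81.85 and 109.4 CPM in DTx (5A, 6A and 7A in this order). Slc16a7 (MCT2, the high-affinity neuronal form) stood at 7.16 and 11.1 CPM in saline and at 5.29, 4.54 and 8.60 CPM in DTx. For both genes 5A and 6A were the lowest libraries, saline replicate 2 was the highest, and 7A overlapped saline. Per length Slc16a1 was 39.2 times Slc16a7 (33.0 to 46.6), and 14.8 times when divided by coding length, an alternative added after seeing the data.

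The DTx over saline ratio was 0.755 for Slc16a1 (95% interval 0.553 to 1.03, unadjusted p = 0.0696, edgeR adjusted p = 0.797) and 0.674 for Slc16a7 (0.378 to 1.20, edgeR adjusted p = 0.804). Without saline replicate 2 the log2 fold change went from -0.41 to -0.20 for Slc16a1 and from -0.57 to -0.22 for Slc16a7, and without 7A it was -0.89 for Slc16a7. Summed oligodendrocyte markers had the same 2 low libraries, at 60227 and 92808 CPM in saline against 42977, 44297 and 90697 CPM in 5A, 6A and 7A, with 0 of 10 markers higher in DTx on average. Their part in the Slc16a1, Slc16a7 and Pfkp values was not tested. For 6 of 32 genes (18.8%), namely Slc16a1, Slc16a7, Pfkp, Pfkfb2, Gys1 and Pygm, 5A and 6A were the 2 lowest libraries, against 17.7% of all genes tested.

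Glycogen is built by Ugp2, Gys1 and Gbe1 and broken down by glycogen phosphorylase. Ugp2, which makes UDP-glucose, ranged from 217.1 to 274 CPM, Gys1, the chain-extending synthase, from 27.38 to 34.58 CPM, and Gbe1, the branching enzyme, from 20.3 to 29.6 CPM. Exons of Gys1 (2836 counts in all) overlap Ruvbl2 (3329 counts) on the other strand, so its level is uncertain. The groups overlapped for all 3, with ratios of 1.06 (95% interval 0.805 to 1.38), 1.03 (0.794 to 1.35) and 1.14 (0.839 to 1.54). Pygb, the brain phosphorylase, stood at 484.1 and 547.3 CPM in saline and at 543.3, 745.4 and 611.5 CPM in DTx. Pygm, the muscle phosphorylase that astrocytes also express, stood at 215.6 and 253.2 CPM in saline and at 197.0, 190.2 and 264.4 CPM in DTx. Both overlapped, and library 6A was the highest for Pygb and the lowest for Pygm. The ratio was 1.23 for Pygb (0.887 to 1.70, edgeR adjusted p = 0.813) and 0.927 for Pygm (0.667 to 1.29). Pygb supplied 61.4% to 74.2% of the RNA of Pygb and Pygm together, per length, so the muscle form was a substantial part of it.

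Pyruvate enters mitochondrial oxidation through pyruvate dehydrogenase, which its kinases switch off. Pdha1, the catalytic subunit, ranged from 134.8 to 181.7 CPM with a ratio of 1.02 (95% interval 0.764 to 1.36). Pdk2, the kinase of most tissues, stood at 179.2 and 228.3 CPM in saline and at 183, 237.2 and 253.8 CPM in DTx. Pdk4, the kinase induced by fasting and glucocorticoids, stood at 12.5 and 23.7 CPM in saline and at 18.3, 22.6 and 25.8 CPM in DTx. Pdk1, a target of hypoxia-inducible factor, stood at 25.95 and 31.87 CPM in saline and at 34.94, 36.45 and 31.16 CPM in DTx. All 3 overlapped between groups, and saline replicate 1 was lowest in each.

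Pdk2 supplied 87.2% to 90.3% of these kinases per length, and Pdk1 and Pdk4 were close, with a ratio of 0.811 to 1.39 that crossed 1. Divided by coding length instead, Pdk1 was above Pdk4 in all 5 libraries (1.15 to 1.97). The DTx over saline ratios were 1.10 for Pdk2 (95% interval 0.787 to 1.55), 1.23 for Pdk4 (0.749 to 2.01) and 1.18 for Pdk1 (0.910 to 1.53).

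**Figure D2:**
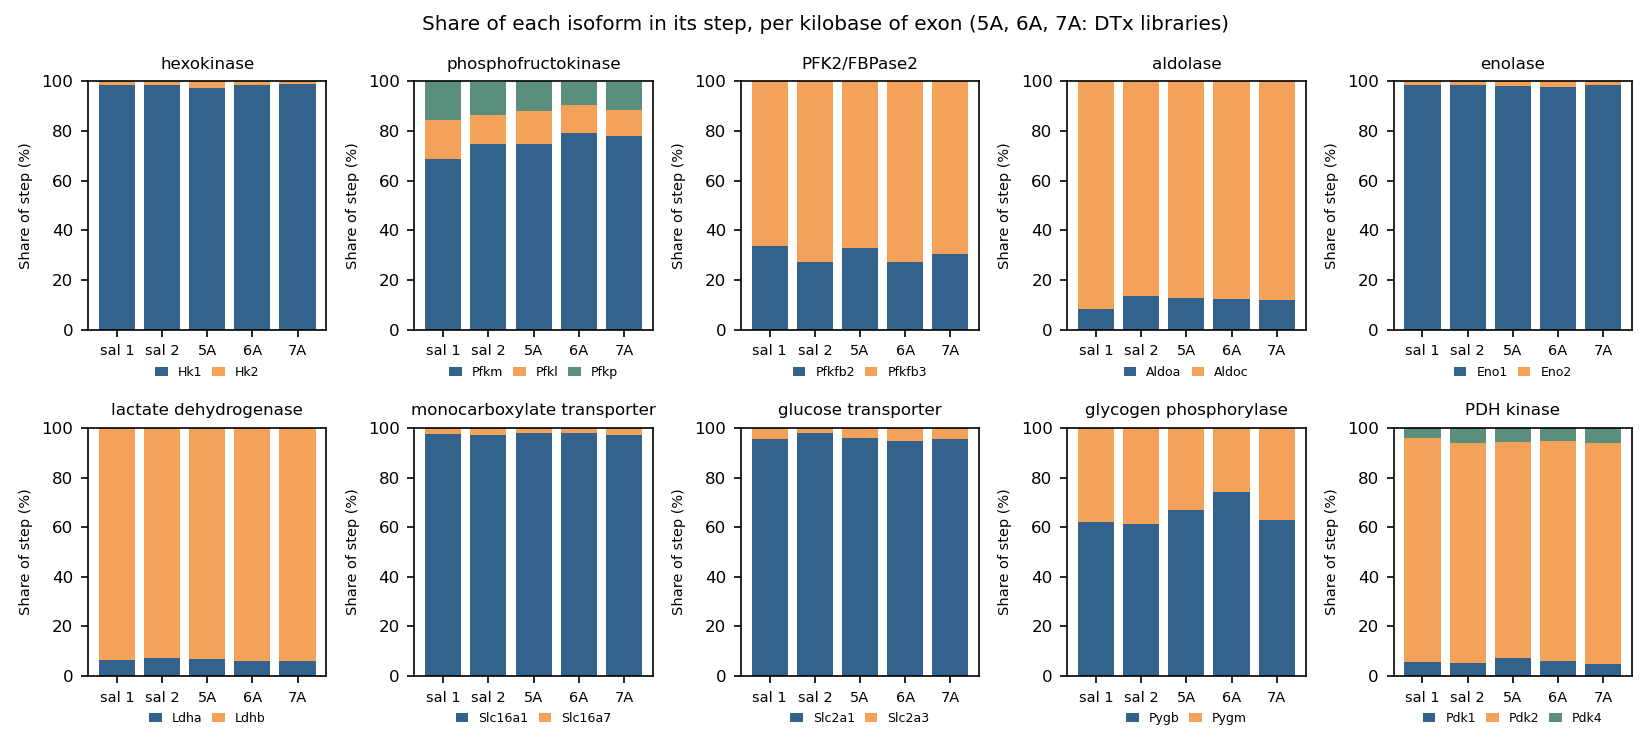
Share of each isoform in the RNA of its step, in percent of CPM per kilobase of exon. There is 1 bar for each of the 2 saline and 3 DTx libraries. Shares are taken over the isoforms among the 32 genes only, so others such as Pdk3, Pfkfb4 and Pygl are left out. The same isoform led in all 5 libraries at each of the 10 steps, from 61.4% for Pygb in saline replicate 2 to 98.9% for Hk1 in library 7A.

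The comparison of the groups asks whether the pathway or the choice of isoform differed between the groups. With edgeR's quasi-likelihood test, 0 of the 32 genes passed an adjusted p of 0.05, and 5 of 15532 genes did over the whole table (0.0322%). All 5 were sex-chromosome genes: Xist, lower in DTx, and Ddx3y, Eif2s3y, Uty and Kdm5d, higher in DTx. At an unadjusted p under 0.05 there was 1 of 32, Eno2, against 6.28% of all genes tested, so the share among the 32 was not above the background. DESeq2 also called 0 of the 32 after adjustment (0.729% of all genes), with 3 at an unadjusted p under 0.05 (6.99%). For limma-voom the numbers were 0 (0.0322%) and 1 (6.22%), and for the edgeR likelihood ratio test 0 (0.644%) and 2 (6.39%). Groups did not overlap with DTx higher for 2 genes, Eno2 and Slc2a3, and 12.1% of all genes did so. Groups did not overlap with DTx lower for 3 genes, Pfkl, Pfkp and Pgk1, and 8.99% of all genes did so.

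Fold changes were small. The 32 log2 fold changes ran from -0.57 (Slc16a7) to 0.60 (Eno2) with a median of 0.08, and 20 were above 0 (62.5%), against a median of 0.00 and 50.3% over all genes tested. The 95% interval lay within a 2-fold change in both directions for 27 of the 32 genes, and within 1.5-fold for 17. The 5 whose interval reached past 2-fold were Hk2, Eno2, Slc2a3, Slc16a7 and Pdk4. The tilt above 0 depended on which saline library was kept. Saline replicate 1 was the lowest library for 20 of 32 genes (62.5%), against 28.4% of all genes tested. Saline replicate 2 was the highest for 14 of 32 (43.8%), against 19.5% of all genes tested. Without saline replicate 1, 9 of 32 genes were above 0 with a median of -0.07. Without saline replicate 2, 25 were above 0 with a median of 0.20.

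**Figure D3:**
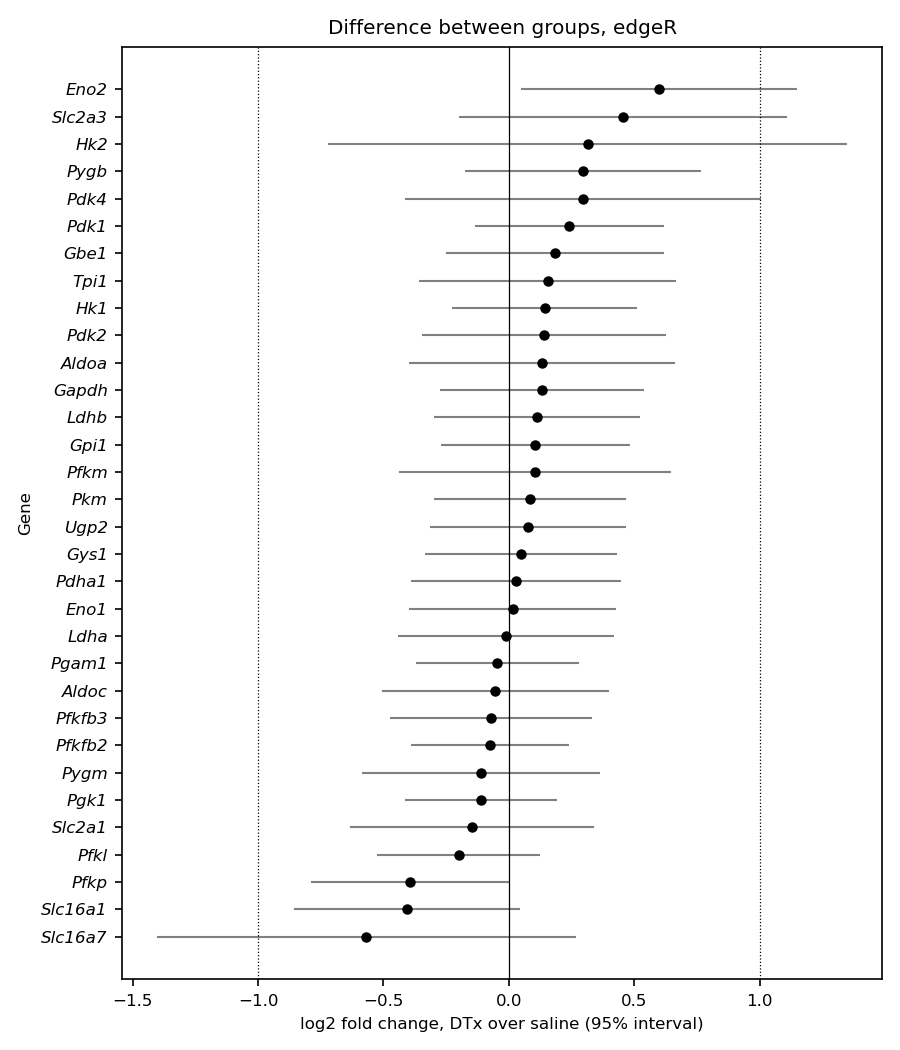
Log2 fold change of DTx over saline for each of the 32 genes (points) with its 95% interval from edgeR (bars); dotted lines mark 2-fold changes. All intervals but that of Eno2 (0.05 to 1.15) include 0, and the adjusted p of every gene was at least 0.789.

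Isoform choice was compared by the log2 ratio of counts of 2 isoforms within a library, which does not depend on library scaling. There were 14 pairs, each tested by exact permutation (two-sided) over the 10 regroupings of the libraries, which cannot give a p below 0.1. Of the 14, 12 kept the same order of levels per length in all 5 libraries, and the others were Pfkp with Pfkl and Pdk1 with Pdk4. The ratio separated the groups for 3 pairs, 2 with DTx lower and 1 with DTx higher. For levels of single genes, groups did not overlap for 8.99% (DTx lower) and 12.1% (DTx higher) of all genes tested. Such separation was therefore common in these libraries. Eno1 to Eno2 stood at 6.18 and 6.19 in saline and at 5.70, 5.34 and 5.84 in DTx, a difference of -0.56. Pfkp to Pfkm stood at -1.61 and -1.97 in saline and at -2.14, -2.57 and -2.24 in DTx, a difference of -0.53. Pygb to Pygm stood at 1.17 and 1.112 in saline and at 1.46, 1.97 and 1.21 in DTx, a difference of 0.41.

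The exact permutation p was 0.1 for the enolase and phosphofructokinase pairs and 0.2 for the phosphorylase pair, and the adjusted p over the 14 pairs was 0.7 for each. The 2 pairs with the most abundant genes differed by less than the spread in saline: Aldoc to Aldoa by -0.22, with an SD of 0.53 in saline, and Ldhb to Ldha by 0.12, with an SD of 0.15. The largest difference, -0.64 for Slc2a1 to Slc2a3, overlapped between groups, with 4.16 and 5.27 in saline and 3.87 to 4.25 in DTx.

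**Figure D4:**
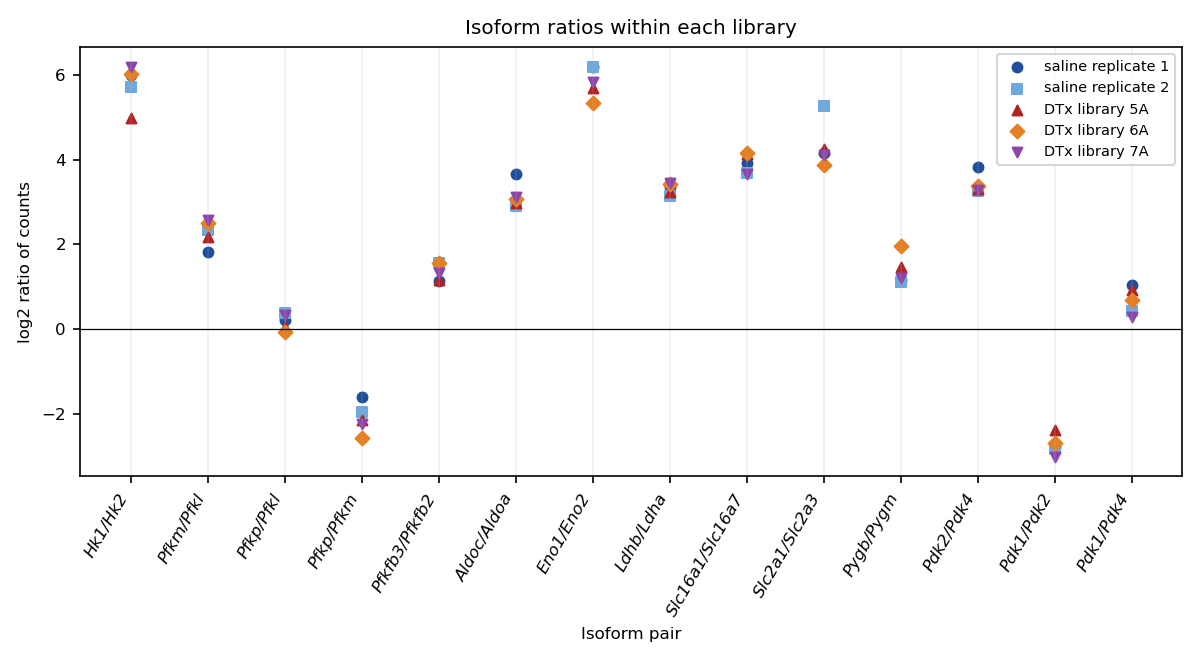
Log2 ratio of counts within each library for 14 isoform pairs, with 1 point for each of the 2 saline and 3 DTx libraries. Pfkp/Pfkm and Eno1/Eno2 are lower and Pygb/Pygm is higher in all 3 DTx libraries than in both saline libraries. The adjusted p of the exact permutation test was 0.7 for each of these pairs.

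The neighbouring genes of the pathway were taken from 5 further lists with 84 genes, of which 74 were tested. None passed the adjusted threshold in either direction with edgeR, and the median log2 fold change was -0.02. At an edgeR unadjusted p under 0.05 there were 3 higher and 0 lower. Of all 15532 genes tested, 666 were higher and 310 lower at this level (6.28%). Among the other glycolytic enzymes, of which 17 were tested, Hk3 and Pck2 had an unadjusted p under 0.05. Hk3, a hexokinase of myeloid cells, stood at 0.185 and 0.538 CPM in saline and at 1.16, 1.18 and 1.25 CPM in DTx (adjusted p = 0.789). Pck2, the mitochondrial phosphoenolpyruvate carboxykinase, stood at 8.40 and 10.2 CPM in saline and at 14.2, 17.5 and 11.7 CPM in DTx (adjusted p = 0.789). Both were higher in each DTx library than in both saline libraries, as were 5 of the 74 in all and 12.1% of all genes tested. Summed microglia markers stood at 107.2 and 266.2 CPM in saline and at 455.2, 325.8 and 263.3 CPM in DTx, and 12 of 12 had a higher mean in DTx. The monocyte and macrophage sum was highest in 5A. Hk3 rested on few counts, 4 and 12 in saline and 22, 19 and 22 in 5A, 6A and 7A. The part of either cell type in the Hk3 value was not tested.

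Of 12 other transport genes tested, 5 were above 0 and 7 below, and the smallest p belonged to Slc2a8 (intracellular GLUT8), Slc2a13 (a myo-inositol transporter) and Slc2a12 (GLUT12). Slc2a8 stood at 29.8 and 30.1 CPM in saline and at 20.9, 22.6 and 27.5 CPM in DTx (edgeR adjusted p = 0.797), below saline in all 3. Slc2a13 and Slc2a12 overlapped between groups, with log2 fold changes of 0.62 and 0.43. Of 22 other glycogen genes, 13 were above 0 and 9 below. Pygl, the liver phosphorylase, stood at 5.49 and 4.03 CPM in saline and at 11.4, 12.1 and 4.73 CPM in DTx, so 5A and 6A stood apart from the other 3 libraries. Epm2a (laforin, a glycogen phosphatase) and Pgm2 (a phosphoglucomutase) had log2 fold changes of -0.91 and 0.30, with adjusted p of 0.797 and 0.816.

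Of 8 other pyruvate dehydrogenase genes, 2 were above 0 and 6 below, with Pdp1 (a phosphatase that switches the complex on), Dlat (its E2 core) and Pdk3 at -0.41, -0.16 and -0.16. The 15 hypoxia-response genes had a median of 0.05, with 8 above 0 and 7 below. Among them Ddit4, a stress-induced inhibitor of mTORC1, stood at 67 and 94.2 CPM in saline and at 94.9, 118.2 and 130.8 CPM in DTx. Vegfa, the endothelial growth factor, stood at 14.9 and 5.16 CPM in saline and at 5.13, 4.23 and 5.30 CPM in DTx, so saline replicate 1 alone was high. Arnt, the partner of hypoxia-inducible factor, had a log2 fold change of -0.36. The adjusted p of Ddit4 and Vegfa was 0.789.

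**Figure D5:**
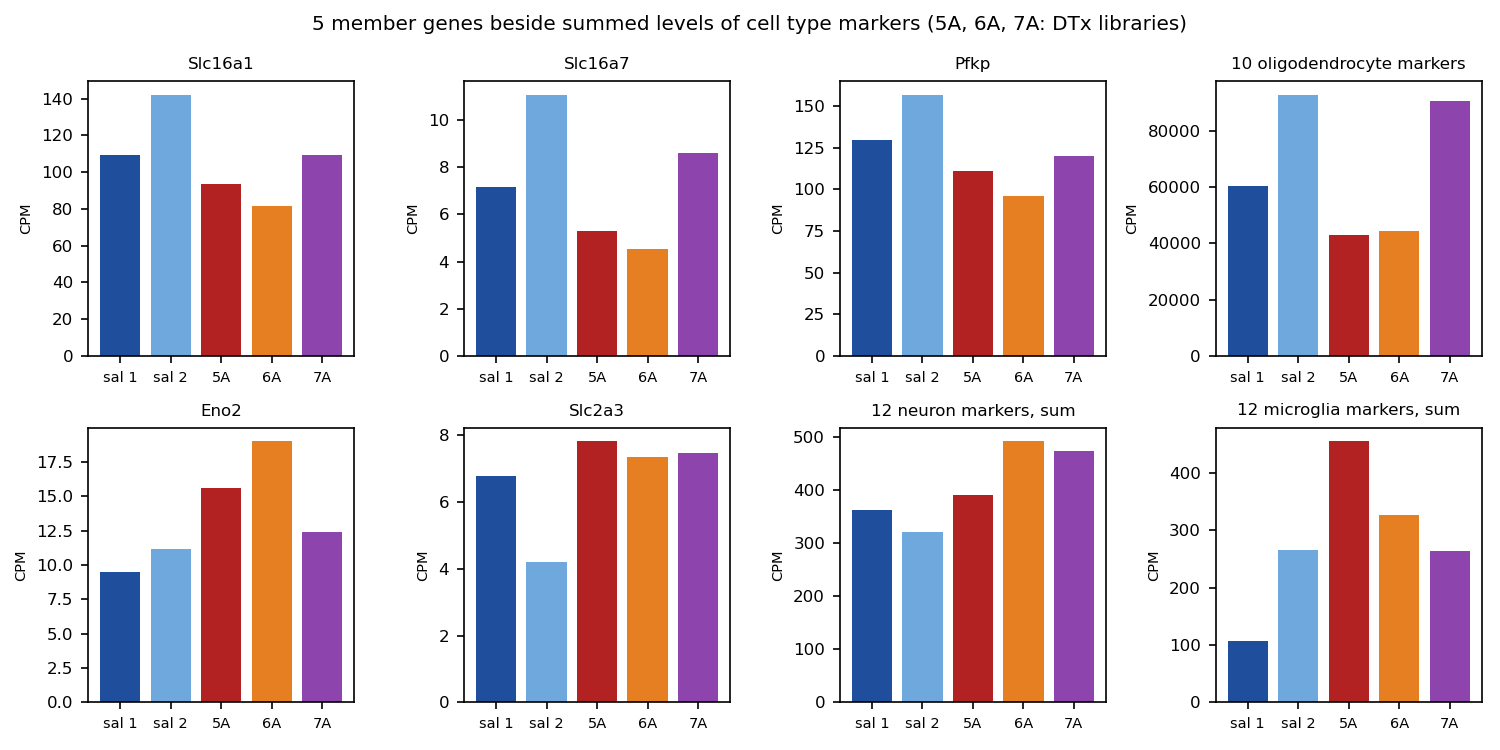
CPM in each of the 2 saline and 3 DTx libraries (bars from 0) for 5 of the 32 genes, and summed CPM of oligodendrocyte, neuron and microglia markers. Slc16a1 and Slc16a7 are lowest in 5A and 6A, the libraries with the lowest oligodendrocyte sums, as are 17.7% of all genes tested. Eno2 is highest in 6A, the library with the highest neuron sum, whereas Slc2a3 is highest in 5A. The part of these cell types in the gene values was not tested.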

How the data were processed

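The values are raw read counts per gene as deposited, with 1 column for each library. The submitters' processing notes name STAR 2.7.5c and featureCounts 2.0.1 for GRCm38 (mm10), besides edgeR 3.42.4, fastp 0.23.2, and MultiQC 1.11 with FastQC 0.11.9. No label or header names the annotation or the use of strand; exons of 7 of the 32 genes overlap a counted gene on the other strand in GENCODE, and for Gys1 (2836 counts) the overlapping gene had more counts than the gene itself (Ruvbl2, 3329). Genes with processed copies, such as Gapdh, Pgk1 and Eno1, may have lost or gained reads.

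Saline columns were matched by the word Ctrl and their number; the numbers of the DTx columns occur in no title, so these were assigned to the group alone. The table's remaining 1 column of sample values, also named Ctrl, was left out of every step. The labels list only saline replicates 1 and 2, so the saline group rests on 2 libraries. Whether libraries came from different animals is not stated, and p-values then reflect only how these libraries vary, which may be technical. The low sample number (2 and 3) and counts without stated molecular identifiers limit precision.

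Counts were compared with edgeR 4.0.16 in R 4.3.3 (TMM scaling, filterByExpr with a minimum count of 10, robust quasi-likelihood F test, Benjamini-Hochberg over 15532 genes). SEs and 95% intervals were derived from the F statistic. CPM values are TMM-scaled. Exon lengths were unions over basic protein-coding transcripts of GENCODE vM21, matched by symbol for 26763 of 35976 genes; positions and start regions came from RefSeq of GRCm38.p6, where 32 of 32 and 30 of 32 genes matched. Isoform ratios used a prior count of 0.5. The fit was tested on simulated data, where it called 33.3% of 150 2-fold changes and 69.3% of 150 4-fold changes. It called 0.14% of unchanged genes. Alternatives were DESeq2 1.42.0, limma-voom (limma 3.58.1), the edgeR likelihood ratio test, other scalings and filters, and each library left out; coding length was added after seeing the data. The 32 genes, the lists and the isoform pairs were chosen with earlier results of these data known. Named genes were those with an unadjusted p under 0.05, with groups that did not overlap or in an isoform pair, and the 3 smallest p of each further list. Some results for the further lists are not reported here.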

Additional observations from a re-analysis of the deposited data

How the results depend on the processing

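None of the 32 genes passed the adjusted threshold under any of the 13 alternatives, and the smallest adjusted p was 0.223 (without DTx library 7A). DESeq2, limma-voom, the edgeR likelihood ratio test, RLE scaling and both filters kept the sign of all 32 fold changes. Upper-quartile and total-count scaling turned that of Ldha, to 0.01 and 0.015. With a library left out, 20 genes changed sign in at least 1 fit, 13 of them without saline replicate 1. The log2 fold change then ran from -0.154 to 0.484 for Aldoa, -0.11 to 0.003 for Aldoc, -0.106 to 0.144 for Eno1, -0.04 to 0.322 for Gapdh and -0.039 to 0.444 for Gbe1. It ran from -0.014 to 0.234 for Gpi1, -0.07 to 0.105 for Gys1, -0.049 to 0.563 for Hk2, -0.201 to 0.2 for Ldha and -0.173 to 0.261 for Pdha1. For Pdk2 the range was -0.026 to 0.326, for Pdk4 -0.096 to 0.83, for Pfkfb3 -0.241 to 0.118, for Pfkm -0.182 to 0.459 and for Pgam1 -0.17 to 0.087. For Pkm it was -0.002 to 0.172, for Pygm -0.275 to 0.011, for Slc2a1 -0.347 to 0.084, for Tpi1 -0.124 to 0.498 and for Ugp2 -0.052 to 0.216. Eno2 stayed above 0 (0.432 to 0.74) and Pfkp (-0.528 to -0.249), Slc16a1 (-0.587 to -0.202) and Slc16a7 (-0.89 to -0.219) below. The other 8 that kept their sign ran from 0.152 to 0.836 for Slc2a3, 0.161 to 0.394 for Pygb, 0.098 to 0.397 for Pdk1, 0.056 to 0.232 for Hk1, 0.02 to 0.208 for Ldhb, -0.257 to -0.144 for Pfkl, -0.155 to -0.084 for Pgk1 and -0.117 to -0.035 for Pfkfb2. The median over the 32 genes ran from -0.074 to 0.204, and 9 to 25 of them were above 0.

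Over all genes, 9 passed with no low-count filter, 111 with DESeq2, 100 with the likelihood ratio test, and 5 to 13 with a library left out (13 without 7A). Of the 32 genes, 0 had an unadjusted p under 0.05 without 5A or without 6A, 3 when saline replicate 1 was left out, and 4 when saline replicate 2 or 7A was. Isoform pairs that separated the groups numbered 3 (without 6A) to 9 (without saline replicate 1), where fewer libraries have to be ordered. Dividing by coding length instead of exon length changed some per-length ratios by over 1.5 times. These were Slc16a1 to Slc16a7 (14.8), Pdk2 to Pdk4 (10.8) and Pdk1 to Pdk2 (0.14). The order of no pair turned in most libraries, while the mean ratio of Pfkp to Pfkl went from 0.979 to 1.12. By coding length Pdk1 was above Pdk4 in all 5 libraries. No paired analysis was possible because the DTx columns carry none of the replicate numbers of the labels. Counts of 30 to 67 limit what can be seen for Hk2.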
